A study of Homo sapiens with 9 samples.

Results

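Collagen chain genes, chosen as every gene of the table whose symbol has the form COL, a number, A and a number, made up 44 of the 58037 genes measured. Of these, 18 reached 1 RPKM (reads scaled to gene length and library size) in 3 or more of the 9 libraries, and 26 did not. RNA sequencing of total RNA was done in 3 established human lines of triple-negative breast cancer: MDA-MB-231, the line MDA-MB-436, and the line MDA-MB-453. From each came 1 control library, labelled as without treatment, 1 library labelled GSK343, a small-molecule inhibitor of the histone methyltransferase EZH2, and 1 labelled shEZH2, a hairpin RNA against the EZH2 transcript. The table heads the control columns shControl, and the sources used here do not settle if a control hairpin was present. They also give no dose, time, hairpin sequence or promoter driving it. Libraries labelled GSK343 or shEZH2 are called treated below. With 1 library per line and treatment, the lines as labelled are the replicates of the treatment comparisons. The p-values of these comparisons measure how far treatment differences vary between the labelled lines. The libraries labelled MDA-MB-453 lay between those of the other lines, as given below, and if they form an independent replicate was not tested. The tests between lines rest on the same residual spread as the treatment comparisons, over another set of genes. Those within a line rest on another spread, given with them.

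Collagens are the main structural proteins of the extracellular matrix. Each molecule is a helix wound from alpha chains, and each gene here encodes 1 such chain, so a finished molecule often needs the products of different genes. Fibril-forming collagens give tensile strength, type IV chains build the basement membrane sheet, type VI forms beaded filaments around cells, and transmembrane and anchoring collagens tie epithelial cells to the matrix below them. In breast tumours most fibrillar collagen is made by fibroblasts, while carcinoma cells are known to make basement membrane and other non-fibrillar chains. EZH2 is the catalytic subunit of Polycomb repressive complex 2, which methylates histone H3 at silenced genes.

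The libraries held between 14757000 and 18283000 reads in genes. Genes with a value above 0 were fewest in each line's control, with 22975, 23604 and 23900 in the controls and 24430 to 27230 in the other libraries. EZH2 itself stood at 27.4, 38.9 and 42.3 RPKM in the control libraries, in the order of the lines above. It stood at 5.77, 7.53 and 7.99 RPKM in the libraries labelled GSK343 and at 16.4, 37.4 and 16.2 RPKM in those labelled shEZH2. The transcript was thus lowest under the label of the inhibitor, and in MDA-MB-436 the library labelled shEZH2 was near its control. Its log2 fold change was -2.19 for GSK343 (limma, adjusted p = 0.000424) and -0.70 for shEZH2 (adjusted p = 0.0597). Every difference between the treatments below therefore refers to libraries as labelled.

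The libraries labelled MDA-MB-453 lay between those of the other lines. Among genes past the filter on low values that differed at least 2-fold between the other lines, 90.8% were intermediate in the MDA-MB-453 control, 98.2% in its GSK343 library and 99.0% in its shEZH2 library. The collagen genes gave 13 of 13, 9 of 10 and 11 of 11. MDA-MB-453 is known as a luminal line. The summed level of 14 luminal markers was 203 to 271 RPKM there, between the 141 to 189 of MDA-MB-436 and the 351 to 424 of MDA-MB-231. All 7 mesenchymal basal markers reached 1 RPKM in all 3 MDA-MB-453 libraries. The treatment calls are therefore also given without these 3 libraries, and the part of this position in them was not tested. A fibroblast list of 9 genes summed to 2.46 to 2.92 RPKM in the controls, 2.74 to 3.64 in the GSK343 libraries and 3.72 to 5.24 in the shEZH2 libraries, and its part in the results was not tested. Of the 9, 3 reached 1 RPKM in 3 or more libraries: PDGFRB (up to 3.45 RPKM), FAP (up to 2.86) and LUM (up to 1.73). DCN and TCF21 were at most 0.0105 and 0.0247 RPKM, and the other 4 stayed under 1 RPKM. In bulk RNA a smaller number of expressing cells and less RNA per cell cannot be told apart.

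COL6A1 and COL6A2, chains of the type VI beaded filament, had the highest mean levels of the collagen genes over the 9 libraries. Levels are RPKM, a scale per length, so genes can be set side by side, and the 3 values of a line are given in the order control, GSK343, shEZH2. Gene positions are those of GENCODE 29 on GRCh38. COL6A1 (chromosome 21, 45981737 to 46005050, plus strand) stood at 25.9, 14.0 and 23.6 RPKM in MDA-MB-231, at 71.6, 48.4 and 51.1 in MDA-MB-436 and at 28.3, 36.7 and 32.1 in MDA-MB-453. COL6A2, its neighbour on the same strand (46098097 to 46132849), stood at 9.80, 7.56 and 14.9 RPKM in MDA-MB-231, at 68.1, 57.2 and 54.9 in MDA-MB-436 and at 20.9, 30.7 and 31.5 in MDA-MB-453. Both genes were higher in every MDA-MB-436 library than in any library of the other lines. COL6A3, whose chain joins these in the classical type VI molecule, was far lower, at 1.42, 0.407 and 1.16 RPKM in MDA-MB-231, and at most 0.0286 RPKM in MDA-MB-436. The ratio of COL6A1 to COL6A2 ran from 1.59 to 2.64 over the MDA-MB-231 libraries, while MDA-MB-436 gave 0.847 to 1.05 and MDA-MB-453 gave 1.02 to 1.36.

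**Figure D1:**
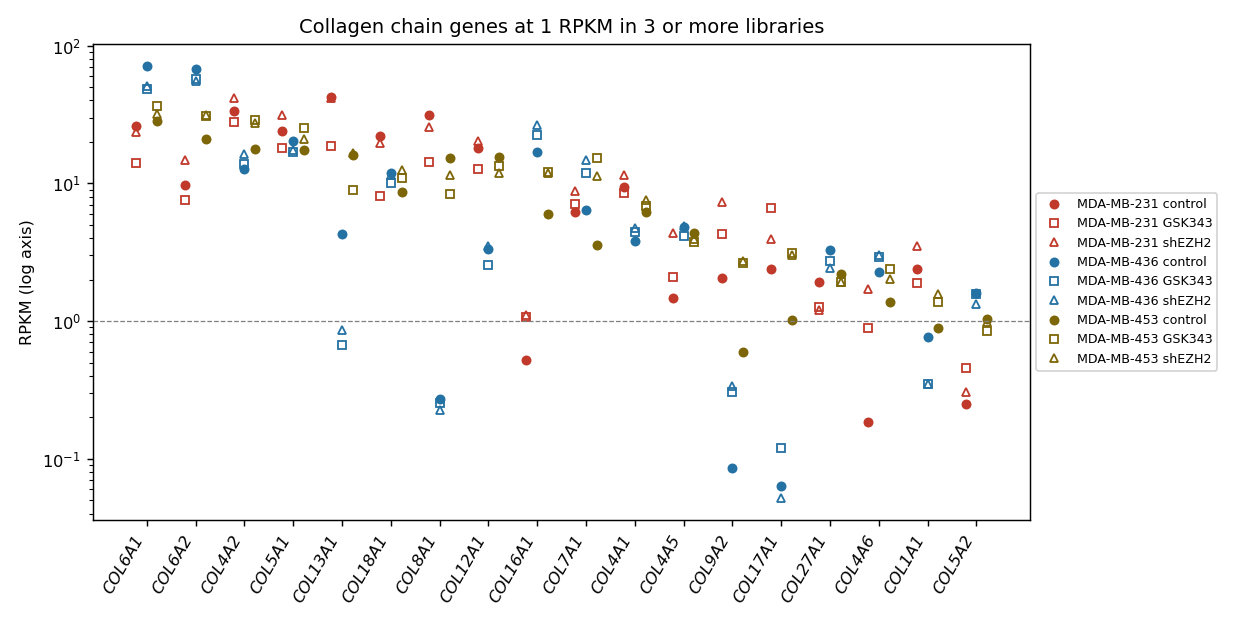
RPKM of the 18 collagen genes that reached 1 RPKM in 3 or more libraries, on a log axis, 1 point per library, coloured by line and shaped by treatment. COL8A1 lies between 8.39 and 31.1 RPKM in MDA-MB-231 and MDA-MB-453 and at or below 0.272 RPKM in MDA-MB-436, while COL16A1 is highest in MDA-MB-436.

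Basement membrane chains came next. COL4A2 stood at 33.8, 28.0 and 41.9 RPKM in MDA-MB-231, at 12.7, 13.8 and 16.3 in MDA-MB-436 and at 17.7, 28.7 and 27.4 in MDA-MB-453. COL4A1, which supplies the partner chain of the common type IV molecule, stood at 9.40, 8.51 and 11.4 RPKM, at 3.81, 4.45 and 4.78 and at 6.20, 6.90 and 7.57 in the same lines. Each MDA-MB-231 library was above the MDA-MB-436 library of the same treatment for both genes, and the ratio of COL4A2 to COL4A1 kept to 2.85 to 4.17 over the 9 libraries, with a median of 3.40. COL4A5 and COL4A6, which encode chains of other basement membranes, lay between 1.47 and 4.89 RPKM and between 0.186 and 3.04 RPKM. COL4A3 and COL4A4, known from kidney and lung basement membrane, did not pass 0.304 RPKM in any library. These 6 genes lie in head-to-head pairs on chromosomes 13, X and 2, and members of a pair are transcribed in opposite directions. In GENCODE 29 COL4A1 and COL4A2 overlap at their 5′ ends, with starts 1421 bases apart, which differs from the RefSeq starts used below.

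Because members of a pair share their start region, the overlap of the promoter windows is shown for the pairs in which both genes were past the filter. A window runs from 250 bases before to 50 bases after a gene's start in RefSeq (GRCh38.p14). The overlap of the COL4A1 and COL4A2 windows is chr13:110307108-110307333, with start sites 127 bases apart, and that of COL4A6 and COL4A5 is chrX:108439588-108439708, with start sites 380 bases apart. Both are written from the plus strand. Capitals mark the GC box (GGGCGG or CCGCCC) and the CCAAT box (CCAAT or ATTGG).
COL4A1 and COL4A2: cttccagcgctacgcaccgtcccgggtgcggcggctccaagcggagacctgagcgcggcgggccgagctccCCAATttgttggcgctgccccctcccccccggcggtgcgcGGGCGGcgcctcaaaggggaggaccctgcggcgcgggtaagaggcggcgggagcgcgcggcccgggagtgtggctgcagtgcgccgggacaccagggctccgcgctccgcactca
COL4A6 and COL4A5: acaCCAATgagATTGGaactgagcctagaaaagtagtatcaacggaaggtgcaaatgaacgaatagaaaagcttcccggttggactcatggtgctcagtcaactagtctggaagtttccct
The first stretch has 76.5% G and C, 1 GC box and 1 CCAAT box, and the second has 44.6% G and C, no GC box and 2 CCAAT boxes. Among the 35116 promoter windows of all genes, 44.95% hold a GC box and 34.6% a CCAAT box. These matches describe letters and do not show that a factor binds.

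Fibril-forming genes were represented mainly by COL5A1, a regulator of fibril width, which lay between 17.0 and 31.3 RPKM in all 9 libraries. COL1A1, the major chain of skin and bone collagen, stood at 2.39, 1.90 and 3.53 RPKM in MDA-MB-231, at 0.765, 0.350 and 0.349 in MDA-MB-436 and at 0.885, 1.37 and 1.57 in MDA-MB-453. Its partner chain COL1A2 did not exceed 0.610 RPKM, and COL3A1 did not exceed 0.0613 RPKM. COL27A1 lay between 1.20 and 3.27 RPKM and COL5A2 between 0.250 and 1.60 RPKM.

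The remaining genes past the filter were spread over other classes. COL13A1, a transmembrane collagen of adhesion sites, stood at 42.4, 18.6 and 41.9 RPKM in MDA-MB-231, at 4.27, 0.671 and 0.858 in MDA-MB-436 and at 16.0, 8.96 and 16.6 in MDA-MB-453. COL8A1, a short-chain network collagen, stood at 31.1, 14.3 and 25.7 RPKM, at 0.272, 0.257 and 0.227 and at 15.4, 8.39 and 11.5 in the same lines. MDA-MB-436 was lowest for both. COL12A1, which decorates fibrils, lay between 12.8 and 20.2 RPKM in MDA-MB-231 and between 2.56 and 3.53 in MDA-MB-436. COL18A1, whose product carries endostatin, lay between 8.12 and 22.1 RPKM, and 16.4% of its exonic length overlaps SLC19A1 on the opposite strand, so its value is uncertain where counting ignored strand.

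Summed over all 44 genes, collagen transcripts came to 221 ± 57.2 RPKM (SD, n = 3 libraries) for MDA-MB-231, 219 ± 15.0 for MDA-MB-436 and 201 ± 27.2 for MDA-MB-453, totals that differ by less than the spread within MDA-MB-231. Beaded filament chains held on average 14.8% of the sum for MDA-MB-231, 53.4% for MDA-MB-436 and 30.2% for MDA-MB-453. Transmembrane chains held 17.3%, 0.934% and 8.29% in the same order. Short-chain network genes held 10.9% for the first of these and 0.287% for the second, and basement membrane chains held 22.1%, 12.0% and 18.7% over the lines. These shares are descriptions without a test.

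**Figure D2:**
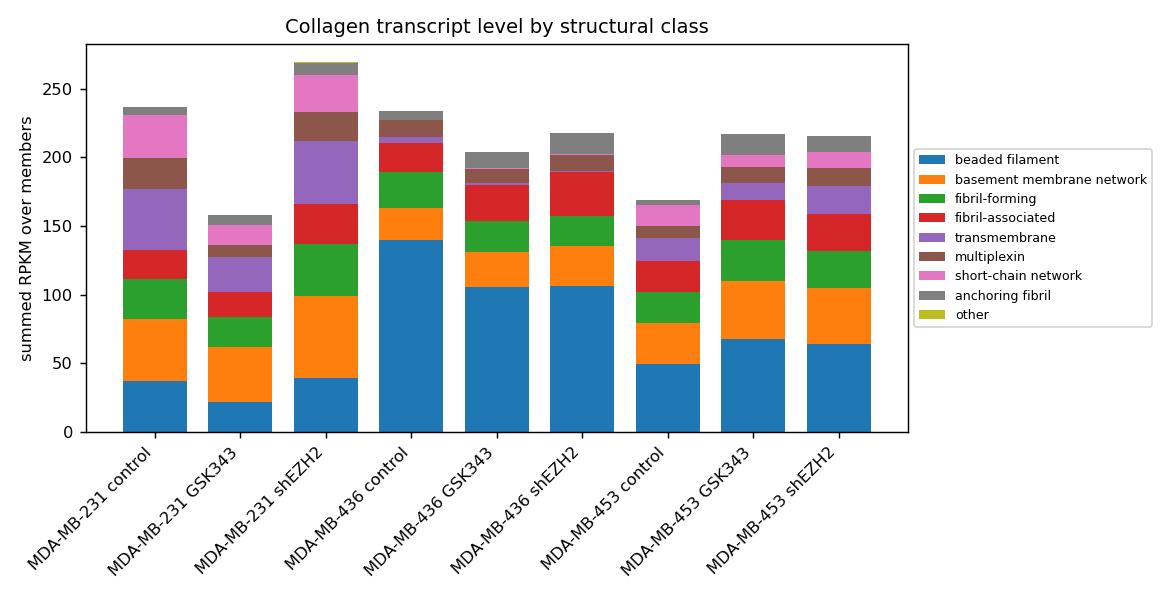
Summed RPKM of the 44 collagen genes in each library, stacked by structural class. Beaded filament chains take between 106 and 140 RPKM in the MDA-MB-436 libraries and between 22.0 and 39.6 RPKM in those of MDA-MB-231.

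MDA-MB-231 and MDA-MB-436 differed in 20 of the 44 collagen genes, 10 higher and 10 lower in MDA-MB-231 (limma, adjusted p under 0.05), where 25.9% of all 36845 genes tested passed. By direction, 11.0% of all genes were higher and 15.0% lower in MDA-MB-231. The comparison used the 3 libraries of each line, with treatment as a term and no filter on low values. Its error is how far line differences vary between treatments, which is also the residual of the treatment comparisons. Variation between cultures of a line was not measured. COL8A1 was higher in MDA-MB-231 by 4.24 on the log2 scale (95% confidence interval 3.76 to 4.71, adjusted p = 4.06e-05), an 18.8-fold difference of RPKM + 1. COL13A1 followed with 3.71 (adjusted p = 0.000292), then COL17A1 with 2.22, COL12A1 with 2.11, COL9A2 with 2.05, COL1A1 with 1.26, COL4A2 with 1.21 and COL4A1 with 1.01. COL16A1, a fibril-associated collagen, had the widest margin among those lower in MDA-MB-231, a log2 difference of -3.59 (95% confidence interval -3.89 to -3.29, adjusted p = 1.32e-05) or 12.1-fold. COL6A2 had -2.42, COL6A1 -1.41, COL4A6 -1.03, COL5A2 -0.90 and COL27A1 -0.64. The other 6 that passed, COL6A3 and COL1A2 (higher) and COL22A1, COL5A3, COL14A1 and COL26A1 (lower), stayed under 1 RPKM in most or all libraries. The count was 14 to 19 when 1 library was left out and 14 without the MDA-MB-453 libraries. COL1A2 lost its call in every fit that left out 1 library, and COL14A1 and COL26A1 in most of them. COL6A1 and COL1A1 lost theirs without the GSK343 library of MDA-MB-436, COL6A3 without the shEZH2 library of either line, and COL4A6 without either treated MDA-MB-436 library or the GSK343 library of MDA-MB-231.

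**Figure D3:**
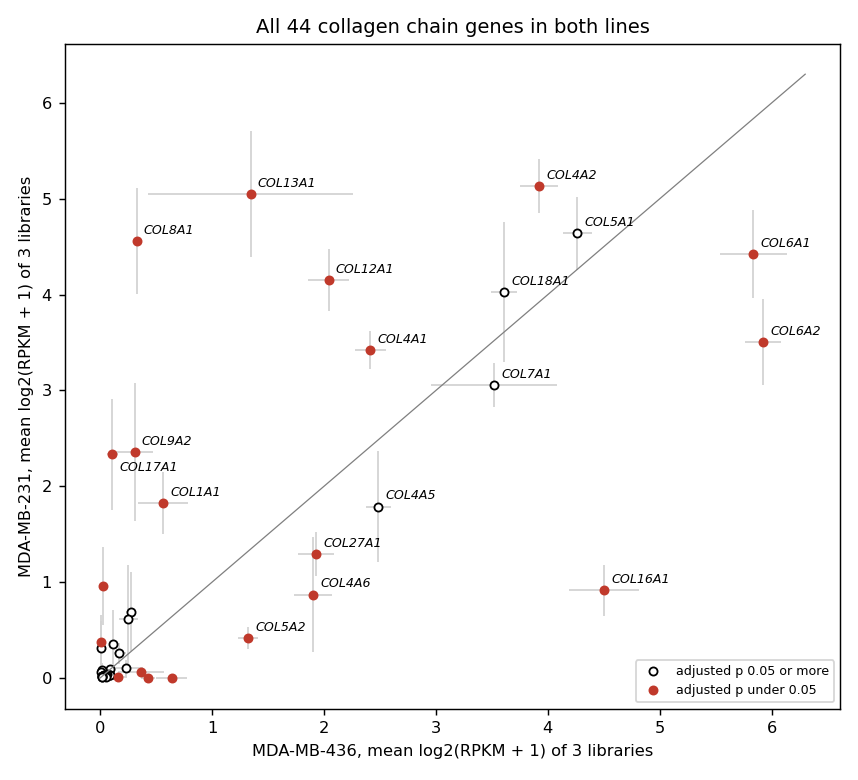
Mean log2(RPKM + 1) of all 44 collagen genes over the 3 libraries of MDA-MB-436 (x axis) and MDA-MB-231 (y axis), with bars of 1 SD and filled points past an adjusted p of 0.05. COL8A1 and COL13A1 lie far above the line of equal levels, and COL16A1, COL6A1 and COL6A2 lie below it.

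MDA-MB-453 differed from MDA-MB-436 in 9 of 44 collagen genes, 6 higher and 3 lower, against 6.54% of all genes (4.02% higher and 2.52% lower). It differed from MDA-MB-231 in 2 of 44, both higher, against 4.82% (3.72% higher). Against MDA-MB-436, COL8A1, COL13A1, COL12A1, COL17A1, COL9A2 and COL4A1 were higher, by 3.31, 2.50, 1.83, 1.58, 1.17 and 0.56 on the log2 scale. COL16A1 and COL6A2 were lower, each with -1.11, and COL5A3 was lower with -0.25. Against MDA-MB-231, COL16A1 was higher by 2.48 (adjusted p = 0.000285) and COL6A2 by 1.31 (adjusted p = 0.0319). Leaving out 1 library gave 2 to 6 calls in place of 9, lowest without the GSK343 library of MDA-MB-436 or the shEZH2 library of MDA-MB-453, and COL8A1 and COL12A1 passed in each of those fits. In place of 2 calls it gave 1 without any library but the MDA-MB-436 control (3 calls), and COL16A1 passed in each. That count also depends on the settings: it was 12 when genes under 1 RPKM in 3 libraries were left out, 7 at a mean RPKM of at least 5, and 6 and 5 with pseudocounts of 0.1 and 0.5.

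COL7A1, COL9A2 and COL16A1 were higher and COL13A1 was lower in the treated libraries on average, in fits that compare treatments within lines. COL9A2 did not pass the threshold for GSK343 alone, nor COL13A1 for shEZH2 alone. With both treatments averaged, 6 of the 18 genes past the filter changed, 5 up and 1 down, against 16.5% of the 12965 genes tested (12.2% up and 4.30% down). Their median log2 fold change was 0.09, and that of all genes tested was 0.05. For GSK343 alone 4 of 18 passed, 3 up and 1 down, against 7.85% of all genes (6.25% up and 1.60% down), with a median of -0.01 beside 0.06. For shEZH2 alone 3 of 18 passed, all up, against 10.6% (8.35% up), with a median of 0.21 beside 0.05. The comparisons with control share the 3 control libraries, so they are not independent of each other. Without the 3 MDA-MB-453 libraries none of the 18 passed in any of these comparisons (limma, adjusted p under 0.05), when 145 of all genes passed for the mean of both treatments, 43 for GSK343 and 16 for shEZH2. At an unadjusted p under 0.05 the collagen genes then gave 6, 6 and 5 of 18 in that order, beside 21.3%, 15.6% and 18.6% of all genes.

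COL7A1 (chromosome 3, 48564073 to 48595267, minus strand) encodes the anchoring fibril that fastens the epidermal basement membrane to the dermis. It stood at 6.19, 7.13 and 8.88 RPKM in MDA-MB-231, at 6.42, 11.8 and 14.8 in MDA-MB-436 and at 3.57, 15.4 and 11.3 in MDA-MB-453. Every treated library was above every control, with 7.13 to 15.4 RPKM against 3.57 to 6.42. Among the 18 genes past the filter it alone was separated in this way, beside 4.57% of all genes past the filter. The log2 fold change was 0.94 for GSK343 (95% confidence interval 0.41 to 1.46, adjusted p = 0.0369), 0.99 for shEZH2 (0.47 to 1.52, adjusted p = 0.0240) and 0.96 for both averaged (0.51 to 1.42, adjusted p = 0.0110). Leaving out single libraries gave 0.63 to 1.29 for the average, and the call was lost only without the control of MDA-MB-453 (adjusted p = 0.1001) among those 9 fits. The GSK343 call was lost under median-ratio rescaling, and without the controls of MDA-MB-436 or MDA-MB-453 or the GSK343 library of MDA-MB-453, and the shEZH2 call without either of those controls or any shEZH2 library.

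COL9A2 (chromosome 1, 40300487 to 40317813, minus strand) encodes a chain of type IX collagen, which coats cartilage fibrils. It stood at 2.07, 4.28 and 7.34 RPKM in MDA-MB-231, at 0.0861, 0.305 and 0.338 in MDA-MB-436 and at 0.598, 2.64 and 2.75 in MDA-MB-453. Both treated libraries exceeded the control in each line. The log2 fold change was 0.99 for shEZH2 (0.53 to 1.45, adjusted p = 0.0149) and 0.87 for both averaged (adjusted p = 0.00958), while for GSK343 it was 0.74 with an adjusted p of 0.0516. The averaged call was lost without the MDA-MB-231 control or the MDA-MB-453 control, with an adjusted p of up to 0.104, and the shEZH2 call also without the shEZH2 library of MDA-MB-231.

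COL16A1 (chromosome 1, 31652247 to 31704319, minus strand), a fibril-associated collagen found at cell adhesion sites, stood at 0.521, 1.07 and 1.12 RPKM in MDA-MB-231, at 17.0, 22.6 and 26.5 in MDA-MB-436 and at 5.97, 12.0 and 11.9 in MDA-MB-453. Each treated library was above its own control, and the lines did not overlap. The log2 fold change was 0.58 for GSK343 (0.26 to 0.90, adjusted p = 0.0345), 0.66 for shEZH2 (0.34 to 0.98, adjusted p = 0.0176) and 0.62 for both averaged (adjusted p = 0.00876). The averaged call held when any single library was left out, with an adjusted p of up to 0.0493. The separate calls were each lost without the control of MDA-MB-453 or any library of the treatment tested, and that for GSK343 also without the shEZH2 library of MDA-MB-436 and under median-ratio rescaling.

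COL17A1 (chromosome 10, 104031286 to 104085957, minus strand), the transmembrane collagen of hemidesmosomes, stood at 2.39, 6.57 and 3.98 RPKM in MDA-MB-231 and at 1.02, 3.11 and 3.01 in MDA-MB-453. The libraries of MDA-MB-436 had 0.0641, 0.121 and 0.0518 RPKM, with no common direction there. The log2 fold change was 0.75 for GSK343 (adjusted p = 0.0490), 0.51 for shEZH2 (adjusted p = 0.136) and 0.63 for both averaged (adjusted p = 0.0357). The GSK343 call was lost with pseudocounts of 0.1 and 0.5, under both rescalings, and without the control or GSK343 library of either other line or the shEZH2 library of MDA-MB-231 (adjusted p up to 0.224). The averaged call was lost without any 1 of the 6 libraries of the other lines, with 0.44 as the lowest log2 fold change. COL4A6 (chromosome X, 108155607 to 108439497, minus strand) rose only in the averaged test, by 0.55 (adjusted p = 0.0363), from 0.186 to 0.891 and 1.71 RPKM in MDA-MB-231, from 2.27 to 2.94 and 3.04 in MDA-MB-436 and from 1.38 to 2.41 and 2.01 in MDA-MB-453. Its call was lost without the MDA-MB-231 or MDA-MB-453 control, either treated MDA-MB-231 library or the GSK343 library of MDA-MB-453, and under median-ratio rescaling.

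COL13A1 (chromosome 10, 69801867 to 69964275, plus strand) was the gene that fell. Its levels, given above, were lower than the control in the GSK343 library of each line. In the shEZH2 libraries it was lower than control in MDA-MB-436, at 0.858 against 4.27 RPKM, and within 1 RPKM of the control in the other lines. The log2 fold change was -1.19 for GSK343 (-1.74 to -0.65, adjusted p = 0.0167), or 2.29-fold lower, -0.49 for shEZH2 (adjusted p = 0.2196) and -0.84 for both averaged (adjusted p = 0.0233). The GSK343 call was lost without the control of MDA-MB-453 or the GSK343 library of MDA-MB-231, with an adjusted p of up to 0.0757, and the averaged call without either of these or the control of MDA-MB-436.

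The other 12 genes past the filter did not pass in any treatment comparison. COL8A1 had -0.63 for GSK343 (adjusted p = 0.0616) and was below its line's control in all 6 treated libraries, as was COL27A1, with -0.26 for both averaged (adjusted p = 0.153). COL4A2 had 0.29 for both averaged (adjusted p = 0.187) and COL4A1 0.16. COL6A1 had -0.25 (-0.64 to 0.15), COL6A2 0.13 (-0.27 to 0.53), COL5A1 0.05 (-0.32 to 0.42) and COL1A1 0.03 (-0.33 to 0.39), so these intervals span changes in both directions.

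**Figure D4:**
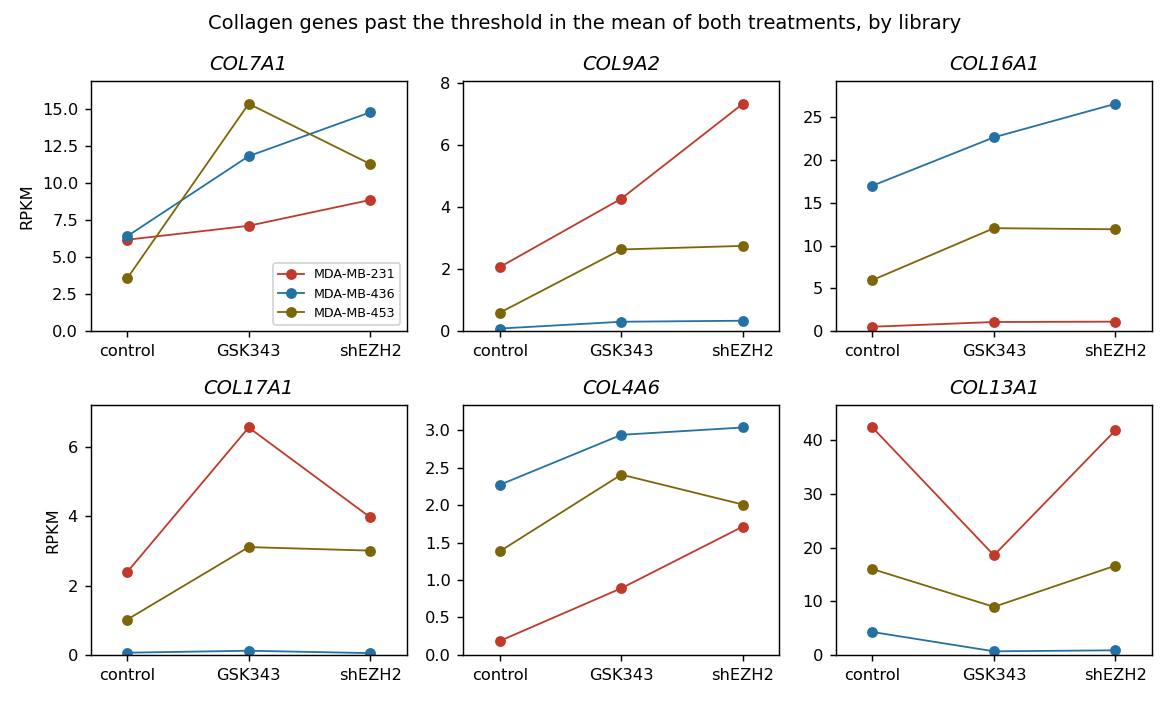
RPKM of the 6 collagen genes past the threshold in the mean of both treatments, in each line's control, GSK343 and shEZH2 library, joined by line. COL7A1 is higher in every treated library than in any control, and COL13A1 is lowest in each line's GSK343 library.

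The promoter windows of the 5 genes that passed in at least 1 of the separate treatment comparisons are printed so that their sequence can be set beside these values. All lie on GRCh38.p14 and are written 5′ to 3′ on the gene's own strand: COL7A1 at chr3:48595280-48595579, COL9A2 at chr1:40317237-40317536, COL16A1 at chr1:31703968-31704267, COL17A1 at chr10:104085831-104086130 (these 4 on the minus strand) and COL13A1 at chr10:69801656-69801955 (plus strand). Capitals mark the same GC and CCAAT boxes on either strand, and TATAAA on the gene's strand. Adjoining GC boxes that share a base form 1 longer run in COL9A2.
COL7A1: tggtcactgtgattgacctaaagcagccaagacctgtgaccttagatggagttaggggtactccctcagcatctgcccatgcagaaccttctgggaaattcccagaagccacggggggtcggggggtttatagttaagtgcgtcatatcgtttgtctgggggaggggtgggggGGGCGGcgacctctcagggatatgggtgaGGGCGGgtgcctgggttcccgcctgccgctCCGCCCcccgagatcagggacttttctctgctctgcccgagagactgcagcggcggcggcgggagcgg
COL9A2: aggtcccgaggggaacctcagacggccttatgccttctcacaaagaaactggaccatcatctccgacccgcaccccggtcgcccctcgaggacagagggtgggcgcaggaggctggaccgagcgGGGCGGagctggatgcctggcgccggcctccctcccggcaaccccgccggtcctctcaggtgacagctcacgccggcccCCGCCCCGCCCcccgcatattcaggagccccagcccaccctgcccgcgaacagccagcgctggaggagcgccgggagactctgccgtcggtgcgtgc
COL16A1: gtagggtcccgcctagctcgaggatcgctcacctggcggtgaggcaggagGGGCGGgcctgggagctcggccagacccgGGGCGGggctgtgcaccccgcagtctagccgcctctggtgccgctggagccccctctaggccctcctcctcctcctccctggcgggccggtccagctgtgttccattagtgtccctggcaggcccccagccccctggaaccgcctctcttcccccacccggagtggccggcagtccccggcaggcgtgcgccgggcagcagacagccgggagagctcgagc
COL17A1: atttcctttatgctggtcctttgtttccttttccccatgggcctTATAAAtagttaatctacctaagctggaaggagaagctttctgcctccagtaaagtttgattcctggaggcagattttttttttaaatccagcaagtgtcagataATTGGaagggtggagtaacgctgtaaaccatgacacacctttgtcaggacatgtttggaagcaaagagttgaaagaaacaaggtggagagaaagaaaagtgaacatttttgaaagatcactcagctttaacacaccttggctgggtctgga
COL13A1: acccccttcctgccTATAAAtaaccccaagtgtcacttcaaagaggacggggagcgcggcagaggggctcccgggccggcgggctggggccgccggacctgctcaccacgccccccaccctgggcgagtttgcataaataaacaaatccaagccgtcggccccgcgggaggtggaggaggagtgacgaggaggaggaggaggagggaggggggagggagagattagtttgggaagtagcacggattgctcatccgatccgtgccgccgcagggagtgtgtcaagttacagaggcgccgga
The windows of COL7A1, COL9A2 and COL16A1 hold 3, 3 and 2 GC boxes. COL17A1 has no GC box, 40.7% G and C, 1 CCAAT box and 1 TATAAA, and COL13A1 has no GC box and 1 TATAAA. RefSeq windows were matched for 32 of the 44 collagen genes (44 windows, since some genes have several), of which 54.5% hold a GC box, 31.8% a CCAAT box and 13.6% TATAAA. The same shares over the windows of all genes are 44.95%, 34.6% and 7.33%. With so few windows no test was run, and no match says only that these letters are not in the window.

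**Figure D5:**
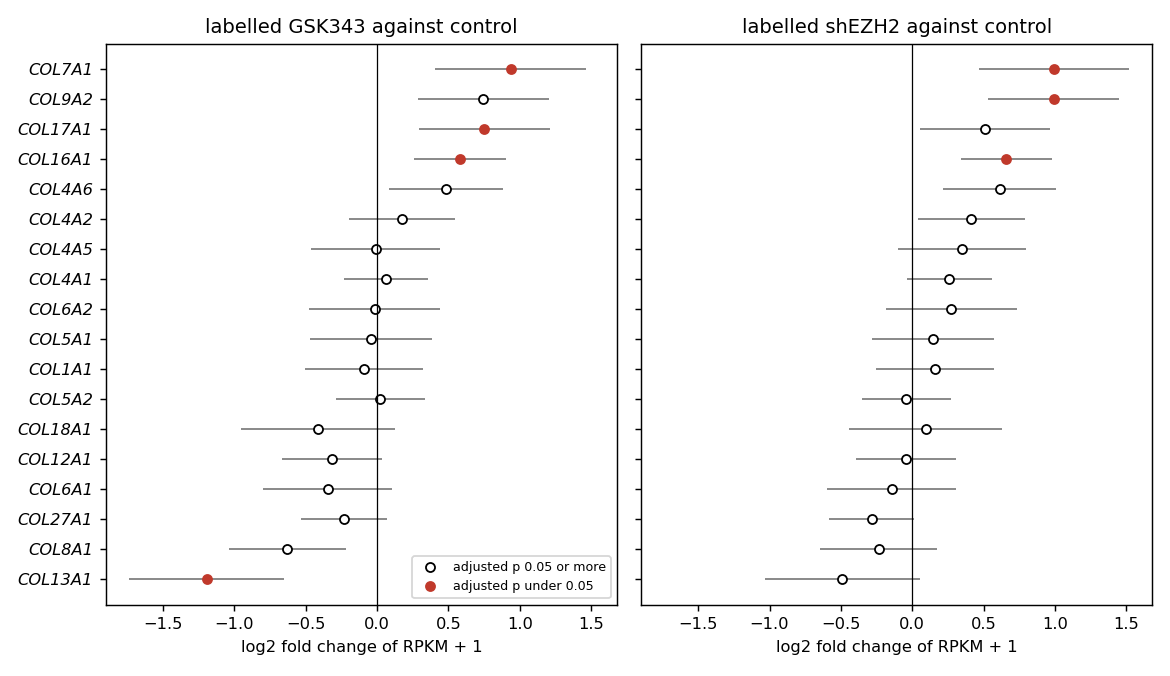
Log2 fold change of RPKM + 1 for GSK343 (left) and shEZH2 (right) against control for the 18 collagen genes past the filter, with 95% confidence intervals, ordered by the mean of both. Filled points pass an adjusted p of 0.05, and the intervals of COL7A1, COL9A2, COL17A1, COL16A1 and COL4A6 lie above 0 in both panels.

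The direct comparison of libraries labelled GSK343 with those labelled shEZH2 found no collagen gene past the threshold, and 0% of the 12965 genes tested. At an unadjusted p under 0.05 there were 1 of 18 (COL13A1, log2 difference -0.70, unadjusted p = 0.0157) and 2.28% of all genes. The estimate was lower for GSK343 in 15 of 18 genes, beside 6193 of the 12965 genes tested, with a median of -0.22 beside 0.01 over all genes. This count was not tested. The summed collagen level of the MDA-MB-231 GSK343 library was 158 RPKM, beside 237 in its control and 269 in its shEZH2 library. In MDA-MB-436 the GSK343 and shEZH2 sums were 204 and 218 RPKM, and in MDA-MB-453 they were 217 and 216. A p that misses the threshold does not show that the treatments act alike.

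Responses within a line set its 2 treated libraries, taken as samples of 1 targeted state, against its single control. The spread in these tests is only the difference between GSK343 and shEZH2 libraries within lines, so variation between controls was not measured, and a call concerns these libraries. Within MDA-MB-453, 4 of 18 collagen genes were past the threshold and higher, against 28.2% of all genes (16.6% up). COL7A1 was higher by 1.64 (adjusted p = 0.00698), COL9A2 by 1.21 (adjusted p = 0.0181), COL17A1 by 1.01 (adjusted p = 0.0261) and COL16A1 by 0.90 (adjusted p = 0.00813). That count became 0 without the GSK343 library of MDA-MB-453 and 1 without its shEZH2 library. No collagen gene passed within MDA-MB-231 (limma, adjusted threshold, where 5.14% of all genes passed), and 6 of 18 had an unadjusted p under 0.05, beside 24.0% of all genes. Within MDA-MB-436 none passed either (limma, where 7.85% of all genes passed), and 3 of 18 had an unadjusted p under 0.05, beside 29.7%. COL9A2 had 1.11 in MDA-MB-231 (adjusted p = 0.0591) and COL7A1 had 0.94 in MDA-MB-436 (adjusted p = 0.0514). The response of the lines was compared by limma's F-test, which passed for 0 of 18 collagen genes and 0.0231% of all genes. On simulated data with 200 changed genes, the F-test recovered at most 2% of 2-fold changes, and the tests within a line 16% to 51%. False calls there were 20 of 75 within MDA-MB-231, 0 of 19 within MDA-MB-436 and 1 of 37 within MDA-MB-453. With the changes placed in MDA-MB-231, 9 of 11 calls of the F-test were false. The simulated noise came from the fit of line and treatment, not from the spread these tests use, so these shares do not give their power here. With 3 residual degrees of freedom, the 0 calls of the F-test do not show that the lines respond alike. COL7A1 was the 1 gene of 18 with an unadjusted p under 0.05 (limma, unadjusted p = 0.0133, adjusted p = 0.112), beside 28.6% of all genes. Leaving out a treated library of MDA-MB-231 gave 7 or 9 calls in this test and 10 within MDA-MB-453, when calls over all genes rose as well, to as many as 4049 and 6257 of 12965.

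The 26 genes under the filter were low in all 9 libraries, and 13 of them never passed 0.1 RPKM. The highest single values were 1.42 RPKM for COL6A3, 1.39 for COL8A2, a corneal basement membrane collagen, and 1.17 for COL15A1, a collagen of vessel basement membranes. COL8A2 stood at 0.179, 0.261 and 1.39 RPKM in MDA-MB-231, between 0.115 and 0.241 in MDA-MB-436 and at 0.0930, 0.279 and 0.592 in MDA-MB-453. COL15A1 stood at 0.224, 0.581 and 1.17 RPKM, at 0.170, 0.218 and 0.245 and at 0.177, 0.607 and 0.579 in the same lines. Both were above the line's own control in all 6 treated libraries. The boundary of the filter ran between COL5A2 (1 RPKM in 4 libraries) and COL1A1 and COL9A2 (in 5) on the inside, and COL6A3 (in 2), COL8A2 and COL15A1 (in 1) on the outside.

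Among these 26 genes, 9 had all 6 treated libraries above all 3 controls and 0 had them below. Over all 11558 genes under the filter with a value above 0 in 5 or more libraries, the shares were 5.61% above and 0.623% below. Within lines, 16 of 26 exceeded their own control in both treated libraries of MDA-MB-231, 23 did so for MDA-MB-436 and 20 for MDA-MB-453, beside 36.7%, 53.3% and 49.6% of those low genes. The summed level of the 26 was 1.47, 2.93 and 3.30 RPKM in MDA-MB-436 and 2.24, 3.55 and 3.87 for the line MDA-MB-453. For MDA-MB-231 it was 2.84, 2.38 and 6.20 RPKM. The measure was chosen after the values were seen and has no test. Many of these values rest on few reads: for the 16 genes whose reads could be recovered, 93 of 144 values were under 10 reads. More genes had a value above 0 in the treated libraries of each line, and the part of that in this pattern was not tested.

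Other genes of the collagen pathway were taken from lists of known roles. With both treatments averaged, 16.5% of all genes tested changed, 12.2% up and 4.30% down. The counts in these short lists were not tested against those shares. Among enzymes and chaperones that modify the chains, 18 of 19 were tested, and 1 rose and none fell with both treatments averaged (median 0.07). That gene was P4HA2, a prolyl hydroxylase that stabilises the helix, with a log2 fold change of 0.67 (adjusted p = 0.00581). Of 9 processing and crosslinking genes tested out of 13, 2 rose and none fell (median 0.08). LOX, which crosslinks collagen, rose by 0.99 (adjusted p = 0.000790), from 10.1 to 26.2 and 22.6 RPKM in MDA-MB-231, from 1.54 to 4.04 and 3.26 in MDA-MB-436 and from 7.64 to 14.8 and 15.9 in MDA-MB-453. ADAMTS14, which removes propeptides, rose by 0.86 (adjusted p = 0.0255). It passed the filter only through treated libraries, with controls of 0.612, 0.0792 and 0.271 RPKM, so its call is no support for a rise. Without any single library LOX and P4HA2 stayed past the threshold, and without the 3 MDA-MB-453 libraries LOX did and P4HA2 and ADAMTS14 did not.

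Of 6 collagen receptor genes tested out of 10, only MRC2, an endocytic collagen receptor, rose, by 0.68 (adjusted p = 0.0276), and none fell (median 0.26). Of 5 proteases tested out of 8, MMP1, a fibril-cutting collagenase, rose by 1.47 (adjusted p = 0.0352) and CTSK, a cathepsin, by 0.78 (adjusted p = 0.00303), and none fell (median 0.04). MMP1 stood at 281, 2585 and 861 RPKM in MDA-MB-231 and at 175, 680 and 901 in MDA-MB-453, and lay between 3.06 and 3.81 RPKM in MDA-MB-436. Of 3 collagen-binding matrix genes tested out of 9, FN1, the fibronectin gene, rose by 0.69 (adjusted p = 0.00568) and LUM, a fibril-spacing proteoglycan, by 0.58 (adjusted p = 0.0416), and none fell (median 0.58). LUM passed the filter only through treated libraries, with controls of 0.238, 0 and 0.144 RPKM, so its call is no support for a rise. It was 0 in every MDA-MB-436 library. Across all genes tested the median was 0.05 and 16.5% changed (12.2% up and 4.30% down). The calls of MRC2, MMP1, LUM and ADAMTS14 were each lost when the control library of MDA-MB-231, or that of MDA-MB-453, was left out, and all but that of ADAMTS14 also without 1 or more treated libraries. Median-ratio rescaling ended the calls of MRC2 and MMP1, robust variances that of MMP1, and a pseudocount of 0.1 that of LUM. Without the 3 MDA-MB-453 libraries MRC2, MMP1, CTSK, FN1 and LUM all lost their calls.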

How the data were processed

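Per the submitters' processing notes, STAR, HTSeq and the build GRCh38 were used; the sources used here give no version, annotation or strand setting. The authors deposited 1 table of RPKM for 58037 genes in 9 columns, and 0 columns were left unused. Multiplied by GENCODE 29 exon lengths, low RPKM values were whole reads within 0.05 of a read, which gave the depths; 92.5% of gene identifiers and 26 of the 44 collagen genes have the same version in that release. Gene coordinates are from it.

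limma 3.58.1 (statmod 1.5.0, R 4.3.3) was run on log2(RPKM + 1) with a mean-variance trend. Two-sided p-values had Benjamini-Hochberg adjustment across every gene tested, and 0.05 was the threshold. Fold changes are of RPKM + 1 and understate changes of low genes. Treatments were compared with line as a term (12965 genes at 1 RPKM in 3 or more libraries, 4 residual degrees of freedom). Responses within lines used 6 means of line and state (3 residual degrees of freedom), and lines were compared with treatment as a term and all 36845 genes above 0. Line numbers pair the samples because the same number is the same line. Gene-wise deviations from treatment means correlated 0.358 to 0.953 within lines and -0.957 to 0.0903 between them. Subtracting the mean of the lines itself pushes the correlations between lines below 0, so their range is no evidence for the pairing. No 2 libraries were identical.

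The collagen genes and the lists were chosen with earlier results of these data known. Named were all collagen genes past the filter or past the threshold, the 3 other collagen genes with the highest single RPKM, up to 3 genes per pathway list past the threshold, and EZH2. Beyond this rule, members under the filter that passed between lines, or that mark a class, were named after their values were seen. The tests were tested on simulated data first. Promoter windows are from RefSeq. Alternatives were other pseudocounts, scalings, filters and moderation, no block for line, and leaving out each library or line.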

Additional observations from a re-analysis of the deposited data

How the results depend on the processing

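Values here are counts of collagen genes past the threshold. Without the replicate block for line, 0 passed in each of GSK343, shEZH2 and their mean (4, 3 and 6 with it), and 0 passed in each with no filter on low values. Median-ratio rescaling gave 1 for GSK343 (COL13A1 passed), and a mean RPKM of at least 5 gave 3 for the mean of both. Leaving out 1 library or line gave 0 to 6 for GSK343, 0 to 5 for shEZH2 and 0 to 7 for their mean. Calls over all genes moved as well over the main fit and these settings. They ran from 2 to 1250 for GSK343, from 2 to 1621 for shEZH2 and from 3 to 2300 for their mean. Within MDA-MB-231 (0), pseudocounts of 0.1 and 0.5 gave 2 and 1, and leaving out 1 library 0 to 6. Within MDA-MB-436 (0), a pseudocount of 0.1, the TPM scale and a mean RPKM of at least 5 each gave 1, and leaving out 1 library 0 to 5. Within MDA-MB-453 (4), a mean RPKM of at least 5 gave 2, no filter gave 1, and leaving out 1 library 0 to 10. The difference between lines (0) gave 0 to 9 when 1 library was left out. MDA-MB-231 against MDA-MB-436 (20) gave 8 with a mean RPKM of at least 5 and 14 to 19 without 1 library. MDA-MB-453 against MDA-MB-231 (2) gave 6 and 5 with pseudocounts of 0.1 and 0.5, 4 with either rescaling, 5 without the trend, 7 with a mean RPKM of at least 5, 12 with the filter of 1 RPKM in 3 columns, and 1 to 3 without 1 library. MDA-MB-453 against MDA-MB-436 (9) gave 2 to 6 without 1 library. Over all genes, calls ran from 4722 to 9909 for MDA-MB-231 against MDA-MB-436 over the main fit and all settings. They ran from 234 to 4060 for MDA-MB-453 against MDA-MB-231 and from 389 to 4500 for MDA-MB-453 against MDA-MB-436. In the tests within lines, calls over all genes moved too, as given above. Leaving out a line's control leaves its own response without an estimate, so those fits were not run. No estimate of a called gene changed sign. The number of collagen genes at 1 RPKM in 3 or more libraries was 18 under both rescalings, which were added after seeing the data, as were the within-line and between-line fits without MDA-MB-453. Depth limits the 26 low genes, many with under 10 reads.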
